A study of Mus musculus with 9 samples.

Results

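The caveolin and cavin genes were followed in cultured mouse myoblasts that overexpressed Pax7 or Pax3. The genes are those of a list of symbols: the caveolins Cav1, Cav2 and Cav3, the cavins Cavin1, Cavin2, Cavin3 and Cavin4, and the neck proteins Ehd2, Pacsin2 and Pacsin3. All 10 were measured, among 19661 genes, and each had 1 probe set that carried its symbol alone. Expression was read on 9 arrays in 3 groups of 3 arrays: myoblasts overexpressing Pax7, myoblasts overexpressing Pax3, and control myoblasts with an empty vector (labelled CTAP). Pax7 and Pax3 are related transcription factors that bind DNA through a paired domain and a homeodomain and act in muscle progenitors. Cells of all groups were skeletal muscle myoblasts of Balb/c mice, kept in Ham's F10 to which 20% serum and 4 ng/ml basic fibroblast growth factor had been added. The labels name no promoter for the introduced genes and do not say whether a group was 1 clone or whether its arrays came from separate cultures. The p-values therefore measure the spread between these arrays, which may be technical.

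Caveolae are flask-shaped pits of the plasma membrane, abundant in muscle, fat and endothelium, that take up membrane tension by flattening and gather receptors and signalling proteins. Caveolins are hairpin proteins of the inner membrane leaflet that oligomerise into the bulb, and cavins are cytosolic proteins that coat it from the inside. EHD and PACSIN proteins sit at the neck, where they bend or hold the membrane. In the muscle lineage Cav3 and Cavin4 are the muscle-restricted members and are found at the surface and T-tubules of fibres, whereas Cav1, Cav2 and the other cavins are made in many cell types.

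Values are log2 intensities per probe set, in which a difference of 1 is a factor of 2, and they were compared only within a gene. Array medians lay between 6.40 and 6.48, and Pearson's r over all probe sets was 0.997 to 0.999 within groups. The overexpressed genes followed their labels: Pax7 averaged 12.28 in Pax7 arrays, 8.18 in Pax3 arrays and 10.51 in control arrays, and Pax3 averaged 6.82, 11.05 and 5.83 in the same order of groups. The myoblast markers Myod1 (12.18 in Pax7, 12.50 in Pax3 and 12.62 in control arrays) and Des (10.80, 11.62 and 12.13) gave strong signal in every group. Myf5, also a myoblast marker, averaged 11.42, 11.37 and 9.40 in the same order and was lowest in control arrays, where Myod1 and Des were highest. Control arrays stood apart in sex-linked genes: Xist, the RNA of the inactive X chromosome, averaged 11.72 in Pax7 arrays, 11.96 in Pax3 arrays and 4.77 in control arrays, and the Y-linked Eif2s3y averaged 3.08, 3.12 and 8.78. In each comparison against control, the effect of the factor and the different origin of the cells cannot be told apart. Pax7 and Pax3 arrays did not differ in Eif2s3y, Uty or Kdm5d by the test (limma adjusted p = 0.551 to 0.718). They differed by -0.24 in Xist (adjusted p = 0.0262). These genes do not show whether both groups came from the same mouse, line or clone. Between Pax7 and Pax3 arrays, too, the factors and a difference of origin cannot be told apart.

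The caveolins did not move as a block. In Pax7 arrays Cav1 was 2.59-fold lower than in control arrays while its neighbour Cav2 was 1.27-fold higher. In Pax3 arrays Cav2 was 2.01-fold higher than in control arrays and Cav1 did not pass the test. Cav3 was lower in both. A gene passed where its Benjamini-Hochberg adjusted p over all genes was under 0.05 in limma, a linear model with spread shared across genes. Of the 10 genes, 9 passed between Pax7 and control arrays, 4 higher and 5 lower, where 43.2% of all genes passed (21.6% higher and 21.5% lower). Between Pax3 and control arrays 6 passed, 2 higher and 4 lower, where 39.6% of all genes passed (19.8% higher and 19.7% lower). Between Pax7 and Pax3 arrays 6 passed, 3 in each direction, where 16.9% of all genes passed (8.33% higher and 8.54% lower). The median absolute log2 fold change of the 10 genes was 0.37, 0.27 and 0.27 in these 3 comparisons, against 0.13, 0.11 and 0.071 over all genes tested. All 10 genes lay in the brighter 50% of genes by mean intensity. With the dimmer 50% left out, 6845 genes still passed for Pax7 against control, of 8485 over all genes. The 43.2% is therefore below the share among brighter genes. The medians over all genes also include the dimmer 50%.

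**Figure D1:**
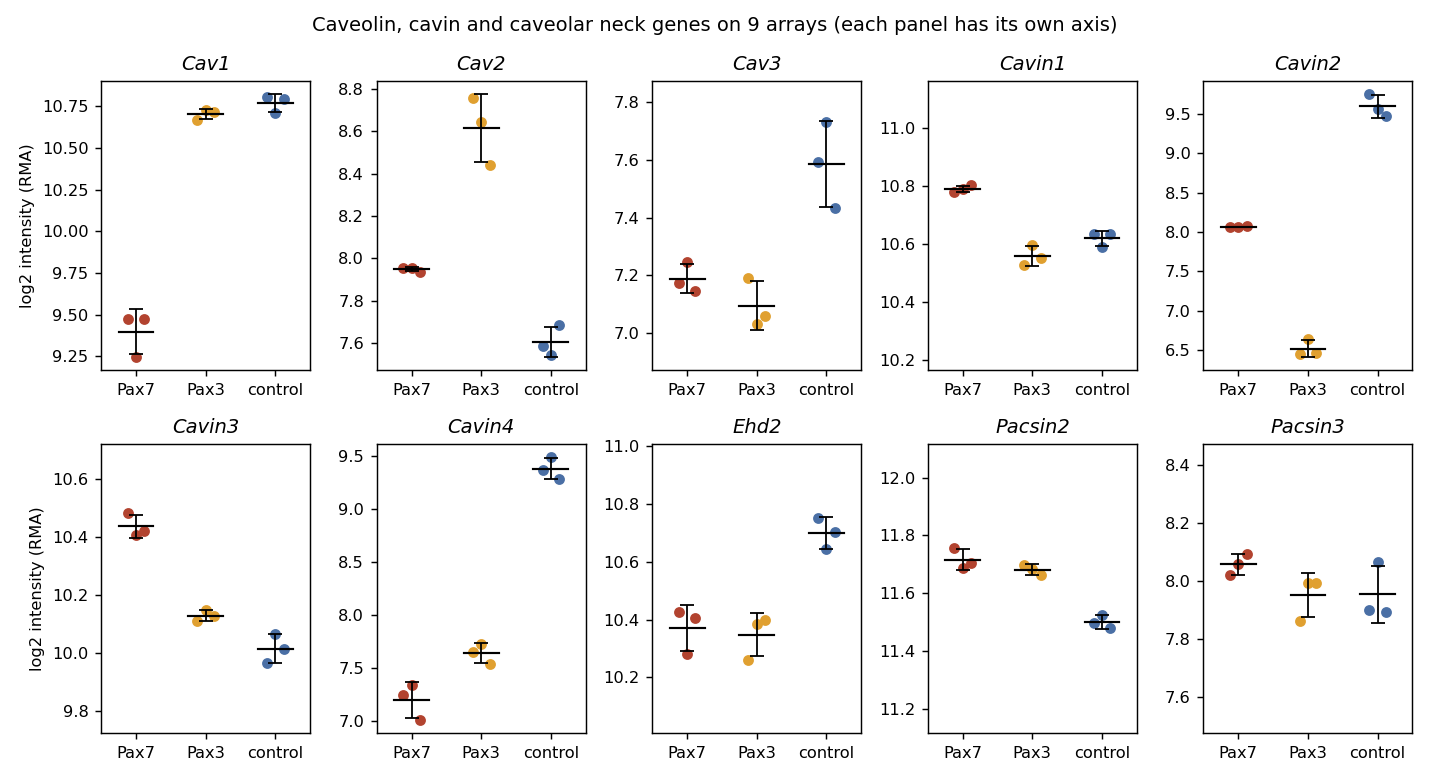
Log2 intensity of the 10 genes on 9 arrays, in groups Pax7, Pax3 and control; points are arrays, long bars are means and whiskers are 1 SD (n = 3), and each panel has its own axis of at least 1 log2 unit. Cav1 is low on the Pax7 arrays alone (9.25 to 9.48), Cav2 is highest on Pax3 arrays (8.44 to 8.76), and Cavin2 takes a separate level in each group.

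Cav1, the caveolin that builds caveolae outside muscle fibres, stood at 9.48, 9.25 and 9.48 on the Pax7 arrays, at 10.67, 10.73 and 10.72 on the Pax3 arrays, and at 10.81, 10.71 and 10.80 on the control arrays. All Pax7 arrays lay below every other array, while Pax3 and control arrays overlapped. The log2 fold change was -1.37 ± 0.063 (SE, n = 3 per group) for Pax7 against control (limma adjusted p = 1.38e-08) and -1.30 ± 0.063 for Pax7 against Pax3 (adjusted p = 2.42e-07). By size, that difference from Pax3 arrays was number 14 from the lowest of 19661 genes. Pax3 against control gave -0.066, with a 95% confidence interval of -0.21 to 0.075 (limma adjusted p = 0.481).

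Cav2, which forms mixed oligomers with Cav1 and needs it to reach the cell surface, stood at 7.95, 7.95 and 7.94 on the Pax7 arrays, at 8.76, 8.64 and 8.44 on the Pax3 arrays, and at 7.59, 7.55 and 7.68 on the control arrays. The groups did not overlap, with Pax3 highest, Pax7 between and control lowest. Cav2 rose by 1.01 ± 0.073 (SE, n = 3 per group) on the log2 scale in Pax3 against control arrays (limma adjusted p = 7.53e-07) and by 0.34 ± 0.073 in Pax7 against control arrays (adjusted p = 0.00254). It was 1.59-fold lower in Pax7 than in Pax3 arrays (-0.66, adjusted p = 8.54e-05). Cav1 and Cav2 thus shared a direction between Pax7 and Pax3 arrays, but took opposite directions between Pax7 and control arrays.

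Cav1 and Cav2 lie side by side on chromosome 6, with 0 protein-coding genes between them in the RefSeq gene table of GRCm38.p6. Their promoter windows are shown because neighbours with separate start sites gave these different patterns. Each window runs from 250 bases before to 50 bases after a RefSeq start site, on the plus strand of GRCm38.p6, at chr6:17306085-17306384 for Cav1 (the upstream one of its start sites) and chr6:17280935-17281234 for Cav2. Cav1 was added for this comparison after its values were seen. Capitals mark matches to the E box CANNTG, the site type of myogenic bHLH factors, and to TATAAA, on either strand.
Cav1: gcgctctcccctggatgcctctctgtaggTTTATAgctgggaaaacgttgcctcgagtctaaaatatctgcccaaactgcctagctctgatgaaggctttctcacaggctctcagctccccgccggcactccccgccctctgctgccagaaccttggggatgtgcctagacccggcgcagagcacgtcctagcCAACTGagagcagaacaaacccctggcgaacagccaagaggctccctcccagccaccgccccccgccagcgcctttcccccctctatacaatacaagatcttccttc
Cav2: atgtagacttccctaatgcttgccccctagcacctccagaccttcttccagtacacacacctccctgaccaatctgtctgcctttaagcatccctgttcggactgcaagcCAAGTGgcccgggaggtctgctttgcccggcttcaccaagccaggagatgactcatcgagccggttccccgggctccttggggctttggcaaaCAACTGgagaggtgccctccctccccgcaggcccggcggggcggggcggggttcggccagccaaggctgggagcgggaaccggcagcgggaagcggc

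Positions are counted from the start site, which is base 1, with -1 the base before it. The Cav1 window held an E box at positions -57 to -52 and a TATAAA match on the opposite strand at -221 to -216. The Cav2 window held E boxes at -140 to -135 and at -47 to -42, and the letters of the second, CAACTG, also stood in the Cav1 window. E boxes are common: 72.3% of 32817 windows of this length hold at least 1, and 13.6% hold TATAAA. Neither window held the homeodomain core TAATTA, which 5.3% of windows hold. Neither held a paired-type palindrome, TAAT and ATTA with 2 bases (0.39% of windows) or 3 bases (0.485%) between them, or a CArG box (1.63%), the Srf site. The palindromes and the core share letters and can overlap.

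Cav3, the caveolin of muscle fibres, stood at 7.17, 7.25 and 7.15 on the Pax7 arrays, at 7.19, 7.03 and 7.06 on the Pax3 arrays, and at 7.59, 7.73 and 7.43 on the control arrays. Control arrays lay above all others, and Pax7 and Pax3 arrays overlapped. Cav3 fell by 0.40 ± 0.074 (SE, n = 3 per group) on the log2 scale in Pax7 against control arrays (limma adjusted p = 0.00105). In Pax3 against control arrays it fell by 0.49 ± 0.074 (limma adjusted p = 0.000254). Pax7 against Pax3 gave 0.094, with a 95% confidence interval of -0.069 to 0.26 (adjusted p = 0.488).

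Among the cavins, the falls were in Cavin2 and in the muscle-restricted Cavin4, each lower in both Pax7 and Pax3 arrays than in control arrays. Cavin1 and Cavin3 differed less: in Pax7 arrays they exceeded control arrays 1.13-fold and 1.34-fold, and neither passed between Pax3 and control arrays. All 4 cavins passed between Pax7 and Pax3 arrays, 3 of them higher in Pax7 arrays and Cavin4 lower. Of all genes, dimmer ones included, 16.9% passed in that comparison (8.33% higher and 8.54% lower). The values are amounts of RNA in bulk cultures, in which fewer cells of a type and less RNA per cell cannot be told apart.

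Cavin2, a protein kinase C substrate that widens and tubulates caveolar membrane, had the largest change of the 10 genes. It stood at 8.06, 8.06 and 8.07 on the Pax7 arrays, at 6.44, 6.64 and 6.47 on the Pax3 arrays, and at 9.75, 9.56 and 9.48 on the control arrays. The groups did not overlap, with Pax3 lowest and Pax7 between Pax3 and control. Pax3 arrays held 8.47-fold less Cavin2 than control arrays (log2 fold change -3.08 ± 0.073, SE, n = 3 per group, limma adjusted p = 1.21e-10), number 25 from the lowest of 19661 genes. It was 2.89-fold lower in Pax7 than in control arrays (-1.53, adjusted p = 1.68e-08) and 2.93-fold higher in Pax7 than in Pax3 arrays (1.55, adjusted p = 1.90e-07). Cavin2 and Cav1 therefore ranked the overexpressing groups in opposite ways: Cavin2 was lowest on Pax3 arrays and Cav1 on Pax7 arrays.

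Cavin4, which joins Cavin2 and Cav3 in muscle caveolae, stood at 7.25, 7.34 and 7.01 on the Pax7 arrays, at 7.66, 7.73 and 7.54 on the Pax3 arrays, and at 9.37, 9.49 and 9.29 on the control arrays. The groups did not overlap, with Pax7 lowest and control highest. It was 4.53-fold lower in Pax7 than in control arrays (log2 fold change -2.18 ± 0.086, SE, n = 3 per group, limma adjusted p = 3.79e-09) and 3.34-fold below control in Pax3 arrays (-1.74, adjusted p = 3.61e-08). Pax7 arrays were 1.36-fold below Pax3 arrays (-0.44, adjusted p = 0.00458).

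The promoter windows of Cavin2 and Cavin4 are shown because these genes fell furthest in both comparisons against control. They cover chr1:51288876-51289175 and chr4:48663264-48663563 of GRCm38.p6, both on the plus strand, with the same marks as above.
Cavin2: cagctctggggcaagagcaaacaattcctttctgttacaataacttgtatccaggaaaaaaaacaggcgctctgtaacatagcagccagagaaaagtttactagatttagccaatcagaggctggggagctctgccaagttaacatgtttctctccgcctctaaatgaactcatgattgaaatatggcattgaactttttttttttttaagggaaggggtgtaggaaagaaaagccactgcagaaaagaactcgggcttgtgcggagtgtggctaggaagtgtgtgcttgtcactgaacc
Cavin4: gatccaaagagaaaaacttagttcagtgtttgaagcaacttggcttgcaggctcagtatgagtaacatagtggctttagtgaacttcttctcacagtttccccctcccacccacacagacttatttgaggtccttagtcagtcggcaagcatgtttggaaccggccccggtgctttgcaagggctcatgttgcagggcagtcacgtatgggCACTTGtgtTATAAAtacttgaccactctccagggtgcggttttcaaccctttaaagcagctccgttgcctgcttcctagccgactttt

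The Cavin4 window held an E box at positions -39 to -34 beside TATAAA at -30 to -25, without overlap between them. The Cavin2 window held none of the motifs searched, and its GC content was 43.3%, against 48.7% for Cavin4, 59.3% for Cav1 and 64.3% for Cav2. Of the 10 genes, 9 had a window in the table; those of Cav3 and Ehd2 held 2 and 1 E boxes. TAATTA occurred once, in a window of Pacsin3 at -239 to -234, and the palindromes and the CArG box in no window of the 9 genes. These matches describe letters in RefSeq sequence and show no binding.

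Cavin1, without which cells form no caveolae, stood at 10.78, 10.79 and 10.80 on the Pax7 arrays, at 10.53, 10.60 and 10.55 on the Pax3 arrays, and at 10.63, 10.59 and 10.63 on the control arrays. Pax7 arrays lay above all others, and Pax3 and control arrays overlapped. The differences were small: 0.17 ± 0.039 (SE, n = 3 per group) on the log2 scale for Pax7 against control (limma adjusted p = 0.00421) and 0.23 ± 0.039 for Pax7 against Pax3 (adjusted p = 0.00192). Pax3 against control gave -0.060, with a 95% confidence interval of -0.15 to 0.027 (adjusted p = 0.281).

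Cavin3, a protein kinase C delta binding protein that takes part in caveolar traffic, stood at 10.48, 10.41 and 10.42 on the Pax7 arrays, at 10.11, 10.15 and 10.13 on the Pax3 arrays, and at 9.96, 10.06 and 10.01 on the control arrays. Cavin3 rose by 0.42 ± 0.043 (SE, n = 3 per group) on the log2 scale in Pax7 against control arrays (limma adjusted p = 1.05e-05) and was 0.31 ± 0.043 higher in Pax7 than in Pax3 arrays (adjusted p = 0.000522). The 3 Pax3 arrays lay above the 3 control arrays, but the difference of 0.12 missed the threshold (adjusted p = 0.0576). It passed without control replicate 2 (adjusted p = 0.0455), with an intensity trend (0.0244), without the dimmer 50% of genes (0.0277) and after another quantile normalisation (0.0323), and over all alternatives its adjusted p ran from 0.0244 to 0.195.

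**Figure D2:**
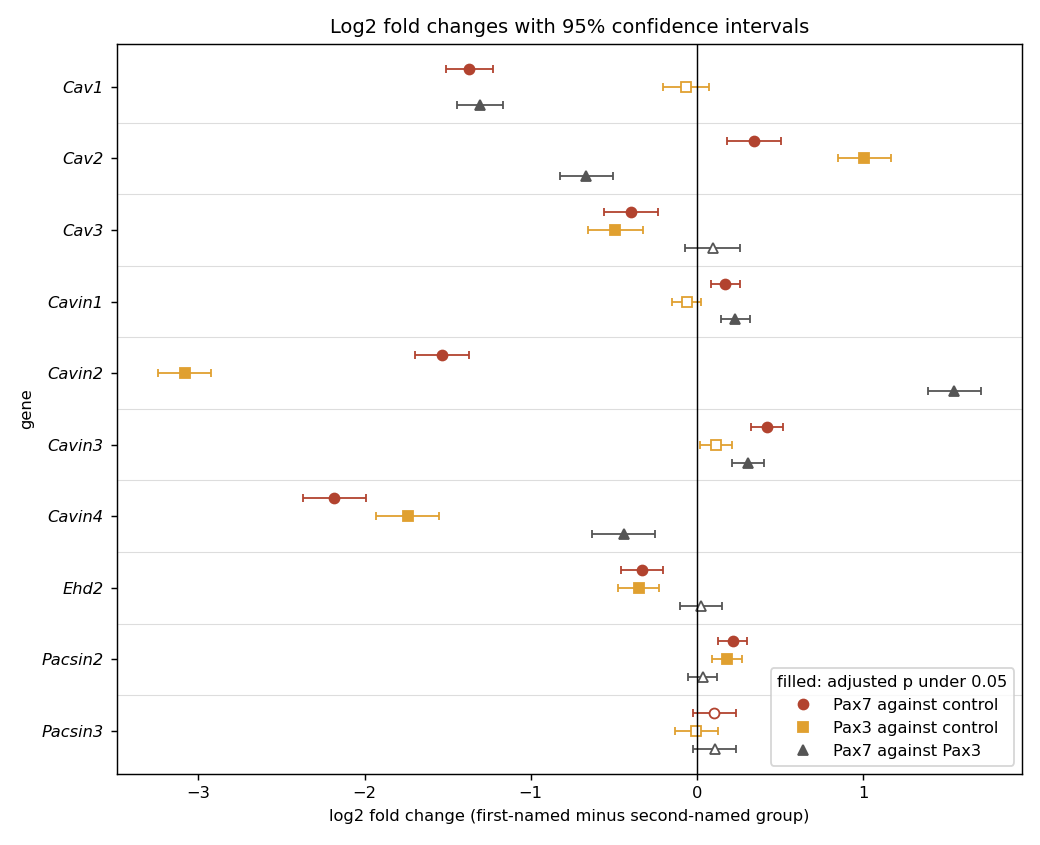
Log2 fold changes of the 10 genes in the comparisons Pax7 against control, Pax3 against control and Pax7 against Pax3, as the first-named minus the second-named group; bars are 95% confidence intervals of the limma fit and filled symbols passed at an adjusted p under 0.05. The Cavin2 interval for Pax3 against control lies furthest from 0 (-3.24 to -2.92), and the Cav1 interval for Pax3 against control spans 0.

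Of the neck genes, Ehd2 fell and Pacsin2 rose against control, and Pacsin3 did not pass. Ehd2, an ATPase whose rings hold caveolae at the surface, stood at 10.43, 10.28 and 10.41 on the Pax7 arrays, at 10.26, 10.39 and 10.40 on the Pax3 arrays, and at 10.75, 10.64 and 10.70 on the control arrays. Control arrays lay above all others, and Pax7 and Pax3 arrays overlapped. Ehd2 fell by 0.33 ± 0.057 (SE, n = 3 per group) on the log2 scale in Pax7 against control arrays (limma adjusted p = 0.000602). In Pax3 against control arrays it fell by 0.35 ± 0.057 (limma adjusted p = 0.000422). Pax7 against Pax3 gave 0.022, with a 95% confidence interval of -0.10 to 0.15 (adjusted p = 0.861).

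Pacsin2, an F-BAR protein that shapes caveolar necks, stood at 11.76, 11.69 and 11.70 on the Pax7 arrays, at 11.70, 11.68 and 11.66 on the Pax3 arrays, and at 11.50, 11.53 and 11.48 on the control arrays. Control arrays lay below all others. Pacsin2 rose by 0.22 ± 0.040 (SE, n = 3 per group) on the log2 scale in Pax7 against control arrays (limma adjusted p = 0.000970). Its rise in Pax3 against control arrays was 0.18 ± 0.040 (limma adjusted p = 0.00344). Its muscle-enriched relative Pacsin3 passed in none of the comparisons, at 8.06 ± 0.035 in Pax7 arrays, 7.95 ± 0.076 in Pax3 arrays and 7.95 ± 0.097 in control arrays (SD, n = 3). The 95% confidence interval for Pacsin3 was -0.026 to 0.23 for Pax7 against control (limma adjusted p = 0.186), and this difference passed without control replicate 2 alone (adjusted p = 0.0463). For Pax3 against control the interval was -0.13 to 0.13 (adjusted p = 0.976), and for Pax7 against Pax3 it was -0.022 to 0.24 (adjusted p = 0.285).

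By group, Pax7 arrays held the lowest levels of Cav1 and Cavin4 and the highest of Cavin1 and Cavin3. Pax3 arrays held the lowest level of Cavin2 and the highest of Cav2. Control arrays held the highest levels of Cav3, Cavin2, Cavin4 and Ehd2 and the lowest of Cav2 and Pacsin2. Adjacent groups that the test did not separate were Pax3 and control for Cav1, Cavin1 and Cavin3, Pax7 and Pax3 for Cav3, Ehd2 and Pacsin2, and all groups for Pacsin3. When the test asked for a change beyond 1.2-fold rather than any change, 4 of the 10 genes passed for Pax7 against control, 4 for Pax3 against control and 3 for Pax7 against Pax3, where 19.4%, 16.6% and 3.99% of all genes passed.

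Signs of differentiation and of other cell types were set beside these values. Over all genes, 21.6% were higher and 21.5% lower in Pax7 against control arrays. In Pax3 against control arrays 19.8% were higher and 19.7% lower. All 8 markers of differentiated muscle fell in both comparisons against control: the log2 of their summed intensity was 11.94 to 12.19 in Pax7 arrays, 13.02 to 13.06 in Pax3 arrays and 14.21 to 14.33 in control arrays, the same order of groups as for Cavin4, whereas Cavin2 was lowest in Pax3 arrays. The other muscle-restricted member, Cav3, averaged 7.19 in Pax7 and 7.09 in Pax3 arrays, which the test did not separate (limma adjusted p = 0.488). Of 8 myoblast markers, Pax7 among them, 2 (Pax7 and Myf5) were higher and 5 lower in Pax7 against control arrays. In Pax3 against control arrays 1 (Myf5) was higher and 5 were lower. Their summed level was 14.52 in Pax7 arrays, 14.49 to 14.51 in Pax3 arrays and 14.69 to 14.71 in control arrays. This sum includes the introduced Pax7 (12.28, 8.18 and 10.51 in Pax7, Pax3 and control arrays), so it does not compare the other markers alone. Of 6 smooth muscle and pericyte markers, 5 were lower in each comparison against control (12.01 to 12.07 in Pax7, 12.77 to 12.78 in Pax3 and 13.38 to 13.46 in control arrays). Endothelial cells are rich in Cav1 and Cavin2. Of 8 endothelial markers, 2 (25%) were higher in Pax7 against control arrays and 1 (12.5%) in Pax3 against control arrays. These shares stand beside 21.6% and 19.8% of all genes. The summed level of the endothelial markers was 8.71 to 8.76 in Pax7 arrays, 8.62 to 8.71 in Pax3 arrays and 8.57 to 8.60 in control arrays. The endothelial junction gene Cdh5 averaged 5.79, 5.65 and 5.62 in Pax7, Pax3 and control arrays and did not pass in Pax3 arrays. Tek, the endothelial marker that passed in both, averaged 5.65, 5.28 and 4.90, with log2 fold changes of 0.74 in Pax7 and 0.38 in Pax3 arrays.

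The following counts stand beside the same shares of all genes, 21.6% and 19.8% higher and 21.5% and 19.7% lower in Pax7 and Pax3 arrays. Of 6 adipocyte markers, 3 (Pparg, Adipoq and Plin1) were higher in Pax7 and 1 (Pparg) in Pax3 arrays. Their summed level was 10.34 to 10.36 in Pax7, 10.16 to 10.18 in Pax3 and 9.25 to 9.31 in control arrays. Pparg, a regulator of fat cell genes, averaged 10.09, 9.89 and 8.76 in Pax7, Pax3 and control arrays. The other 5, the defining Adipoq and Plin1 among them, averaged 4.42 to 6.54 in every group and differed from control by at most 0.25. Adipoq and Plin1 passed in Pax7 against control arrays, at 0.21 and 0.24 (limma adjusted p = 0.0182 and 0.0422). Of 6 fibroblast markers measured, 1 was higher and 1 lower in each comparison against control (9.04 to 9.13 in Pax7, 9.28 to 9.45 in Pax3 and 9.35 to 9.44 in control arrays). Of 5 macrophage markers, 2 were higher in each (9.94 to 10.02 in Pax7, 9.74 to 9.91 in Pax3 and 8.31 to 8.43 in control arrays). These were the lysosomal genes Cd68 (9.40, 8.72 and 7.36 in Pax7, Pax3 and control arrays) and Laptm5 (8.06, 8.65 and 6.58), whereas the defining Ptprc, Csf1r and Adgre1 averaged 3.82 to 4.96 in every group and did not pass. Arrays give no zero reading, so no marker can be called absent. The part of differentiation or of other cell types in the caveolar changes was not tested.

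Genes related to caveolae or to other coats were read from 6 further lists of 77 genes, of which 75 were measured. Among 9 EHD and F-BAR relatives, 3 rose and 1 fell in each comparison against control, or 44.4%, close to the 43.2% (Pax7) and 39.6% (Pax3) of all genes that passed. Ehd3, an ATPase of endosome recycling and the relative that moved most, stood at 10.12, 10.09 and 10.18 on the Pax7 arrays, at 9.22, 9.19 and 9.04 on the Pax3 arrays, and at 7.77, 7.94 and 7.77 on the control arrays. Its groups did not overlap, and it rose by 2.30 ± 0.064 (SE, n = 3 per group) on the log2 scale in Pax7 and by 1.32 ± 0.064 in Pax3 against control arrays (limma adjusted p = 2.36e-10 for Pax7 and 3.04e-08 for Pax3). Ehd1, also of endosome recycling, rose by 0.73 and 0.66 in Pax7 and Pax3 arrays, and the F-BAR protein Trip10 by 0.64 and 0.45. The remaining relative of the EHD family, Ehd4, did not pass (-0.025 in Pax7, adjusted p = 0.738, and 0.078 in Pax3 arrays, adjusted p = 0.276, limma), so Ehd2 was the EHD gene that fell, beside Ehd1 and Ehd3 that rose.

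Scaffolds of other membrane domains and the clathrin coat were read beside the 21.6% and 19.8% of all genes that rose in Pax7 and Pax3 against control arrays. Both shares include the dimmer genes. All 6 flotillin-type scaffolds rose in Pax7 against control arrays and 5 rose in Pax3 arrays, with median log2 fold changes of 0.53 and 0.33, against 0.027 and 0.016 over all genes. Stom did not pass in Pax3 arrays (-0.12, limma adjusted p = 0.0598). Erlin1, a scaffold of the endoplasmic reticulum, rose by 0.82 in Pax7 and 0.90 in Pax3 arrays, its relative Erlin2 by 0.71 and 0.45, and the raft protein Flot1 by 0.67 and 0.32. Among 12 measured clathrin coat genes, 9 rose and 0 fell in Pax7 arrays, and 6 rose, 1 fell and 5 did not pass in Pax3 arrays, with medians of 0.21 and 0.11. The gene that fell was the clathrin light chain Cltb, named after its values were seen, at -0.75 in Pax3 arrays (limma adjusted p = 7.96e-06) and 0.33 in Pax7 arrays (adjusted p = 0.00315). The adaptor subunits Ap2a2 (0.80 in Pax7 and 0.79 in Pax3 arrays) and Ap2s1 (0.54 and 0.34) and dynamin Dnm2 (0.63 and 0.47), which cuts vesicle necks, rose in both. At an unadjusted p under 0.05 in limma, the count of clathrin genes that fell in Pax7 arrays was also 0.

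**Figure D3:**
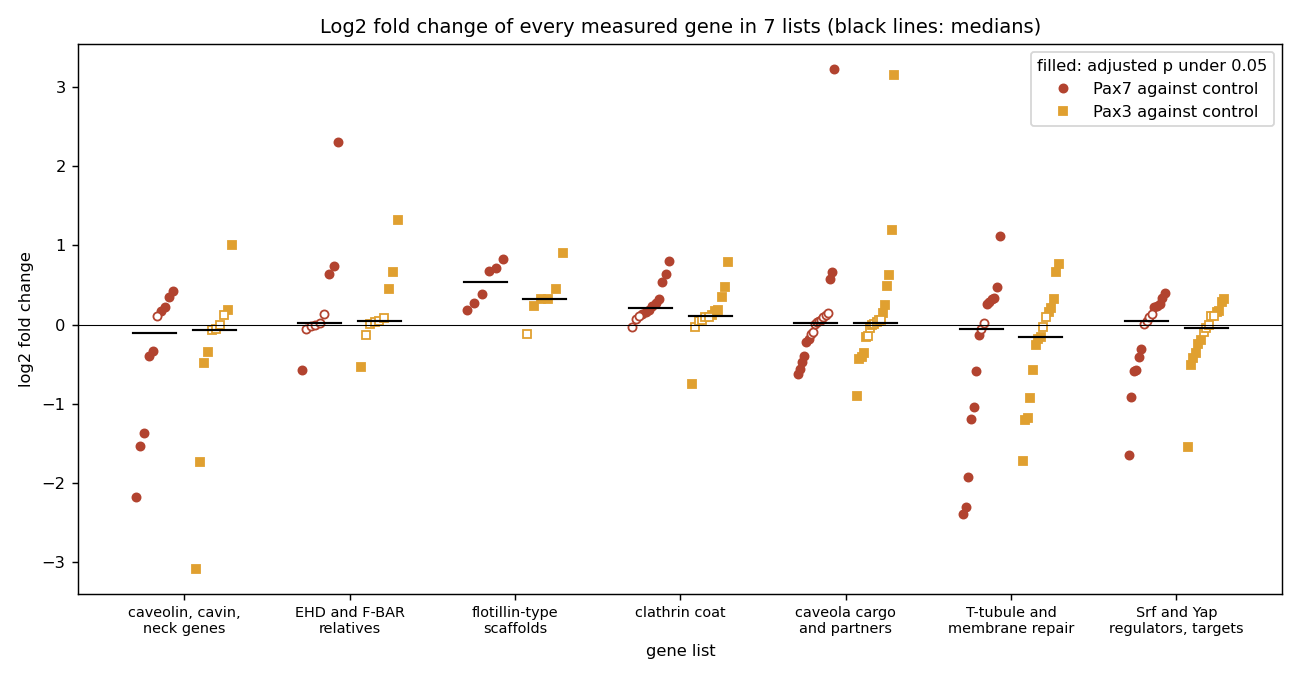
Log2 fold change of every measured gene in the caveolin and cavin set and 6 related lists, for Pax7 against control (circles) and Pax3 against control (squares); filled symbols passed at an adjusted p under 0.05 and black lines are list medians. The flotillin-type list has medians of 0.53 and 0.33, while the caveolin and cavin set spreads from -2.18 to 0.42 for Pax7 and from -3.08 to 1.01 for Pax3.

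Receptors and partners that caveolae can hold gave 3 rises and 6 falls among 18 in Pax7 arrays and 6 rises and 5 falls in Pax3 arrays. That is 50% and 61.1%, against 43.2% and 39.6% of all genes. Both shares of all genes include dimmer genes, and the 43.2% is below the share among brighter genes. The epidermal growth factor receptor Egfr rose by 3.23 in Pax7 and 3.15 in Pax3 arrays, the kinase Src by 0.66 and 0.49, and the receptor Tgfbr1 fell (log2 fold changes -0.63 and -0.90). T-tubule and membrane repair genes, the setting in which Cav3 and Cavin4 act in fibres, gave 6 rises and 7 falls among 15 in Pax7 arrays and 5 rises and 8 falls in Pax3 arrays, or 86.7% in each, against the same 43.2% and 39.6%. Log2 fold changes in Pax7 and Pax3 arrays were -2.40 and -1.73 for Cacna1s, the voltage sensor of the T-tubule, -2.31 and -1.21 for the calcium release channel Ryr1, and -1.92 and -1.18 for the repair protein Trim72, a Cav3 partner. These genes, like Cavin4, were lowest on Pax7 arrays, whereas the test did not separate Pax7 and Pax3 arrays for Cav3. The 3 Pax3 arrays held identical values of Cacna1s (6.79) and of Ryr1 (8.63), with an SD of 0 for each.

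Srf and Yap regulators and their targets, which bear on genes of membrane tension, gave 5 rises and 6 falls among 15 in Pax7 arrays. In Pax3 arrays they gave 4 rises and 6 falls. That is 73.3% and 66.7%, against 43.2% and 39.6% of all genes, dimmer ones included. With the dimmer 50% left out, 6845 genes still passed for Pax7 against control, of 8485 over all genes. Whether this list exceeds the share among brighter genes was not tested. Log2 fold changes in Pax7 and Pax3 arrays were -1.65 and -1.55 for the Srf coactivator Mrtfb, -0.91 and -0.25 for the smooth muscle actin Acta2, and -0.58 and -0.51 for Srf itself. The other 2 probe sets of Mrtfb moved the same way (-1.53 and -1.48 in Pax7, -1.41 and -1.37 in Pax3 arrays). The up to 3 genes per list that were named by size in Pax7 against control had limma adjusted p of at most 0.00199 in both comparisons against control. That bound does not cover Ehd4, Stom and Cltb, whose values are given above. Both comparisons use the same control arrays, so a change in both is not 2 independent observations.

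The genes whose pattern over the 9 arrays was most like that of Cav1 were sought among 1373 named genes whose group means spanned at least 1 log2 unit. Pearson's r was highest for the complement inhibitor Cd59a (0.990), the matrix protease Mmp2 (0.985), the agrin receptor Lrp4 (0.982), muscle glycogen phosphorylase Pygm (0.982) and the G protein subunit Gng2 (0.980). It was lowest for the ligand Wnt7a (-0.994), the amino acid transporter Slc7a8 (-0.992), the membrane glycoprotein Gpm6a (-0.992), the receptor Gpr39 (-0.991) and the peptide hormone gene Cck (-0.989). Wnt7a averaged 7.20 in Pax7 arrays, 5.06 in Pax3 arrays and 5.07 in control arrays. For Cav3, r was highest for the death receptor Fas (0.970), Hivep2 (0.963), Zhx1 (0.959), Calml4 (0.956) and Ralgps2 (0.949), and lowest for H2-M3 (-0.961), the actin capping protein Capg (-0.951), Ifrd2 (-0.949), the growth factor Ereg (-0.945) and Baalc (-0.944). The arrays form 3 groups, so these coefficients mostly reflect group means and describe likeness alone.

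**Figure D4:**
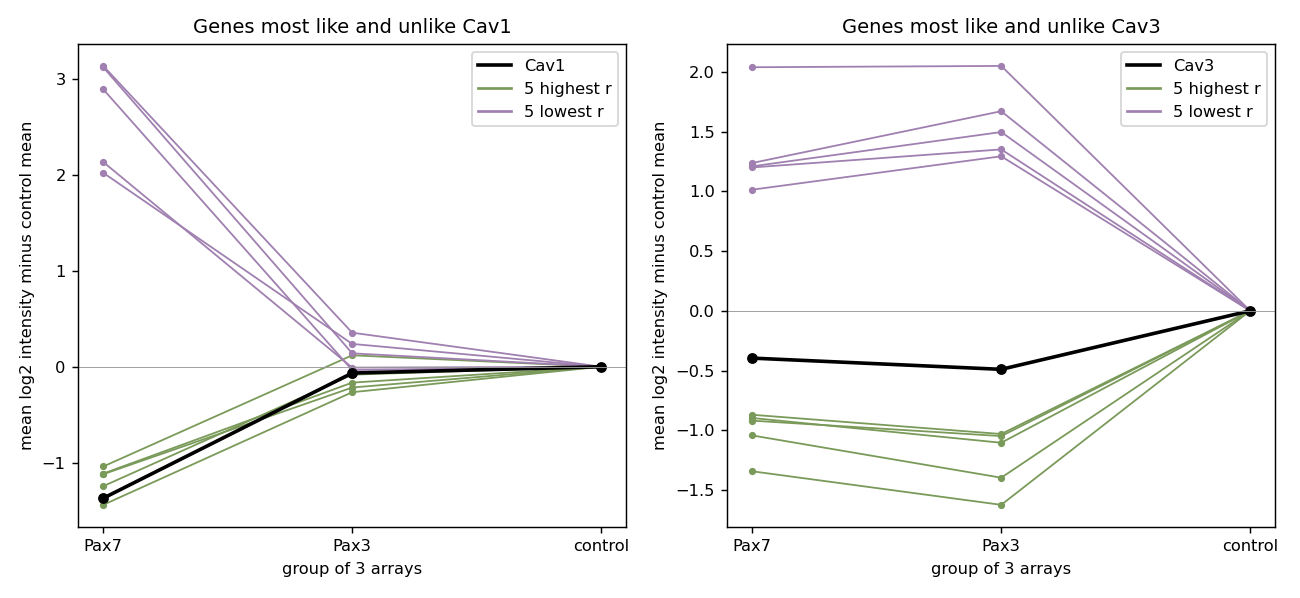
Group means of log2 intensity minus the control mean for Cav1 (left) and Cav3 (right) in black, with the 5 genes of highest and the 5 of lowest Pearson's r over 9 arrays. Genes like Cav1 sit near the control mean on Pax3 arrays and below it on Pax7 arrays, whereas genes like Cav3 sit below it on both.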

How the data were processed

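Values are log2 intensities as deposited by the authors, from Affymetrix arrays processed by RMA in R 2.10.0, per the submitters' processing notes. The build behind the probe sets is not given in the sources used here; GRCm38.p6 below is that of the RefSeq tables. The table holds 25668 probe sets on 9 arrays. Symbols came from the platform annotation: 20777 probe sets carried 1 symbol, 232 several and 4659 none; IDs of 20696 matched RefSeq and 0 symbols changed. For each gene the probe set with the highest mean was kept.

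A group-means model over all 9 arrays was fitted with limma 3.58.1 (R 4.3.3; 6 residual and 4.37 prior degrees of freedom), with Benjamini-Hochberg adjustment over 19661 genes. The code was tested on simulated data. The members and lists were chosen with earlier results of these data known. The rule names every member, up to 3 genes per list by size in Pax7 against control, and the 5 most and least correlated genes for Cav1 and Cav3. No replicate block was used in the main fit. Deviations from group means correlated at -0.026 to 0.225 between arrays of the same replicate number. Arrays of different number were not compared in this way, so whether the numbers pair the arrays was not tested. Values identical in every digit on 2 or 3 arrays of a group occurred for 13.6% of probe sets in Pax7, 12.6% in Pax3 and 10.9% in control arrays. Among the members these were Cav2 and Cavin2 in Pax7, Pacsin3 in Pax3 and Cavin1 in control arrays. The SDs of Cav2 and Cavin2 in Pax7 arrays were small (0.0096 and 0.0055). Those of Pacsin3 in Pax3 arrays (0.076) and Cavin1 in control arrays (0.027) were not the smallest for these genes. Among other named genes, Cacna1s and Ryr1 were identical on all 3 Pax3 arrays (SD 0). Src, Acta2 and Dysf, among others, were identical on 2 Pax3 arrays. The number of arrays limits precision. Promoter sequences are from RefSeq, GRCm38.p6.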

Additional observations from a re-analysis of the deposited data

How the results depend on the processing

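Of 270 member fold changes under alternatives other than leaving out arrays or testing against a fold change of 1.2, 266 kept their direction and their side of the threshold, as did 174 of 180 with 1 array left out, and among these 0 calls were lost. The exceptions were Cavin3 and Pacsin3, whose calls were gained as given above, and values near 0 that changed sign without being called. Pacsin3 in Pax3 against control was -0.0032, and became 0.0053 after another quantile normalisation, 0.041 without Pax3 replicate 1 and 0.053 without control replicate 2 (-0.033 to 0.053 over all left-out arrays). Ehd2 in Pax7 against Pax3 was 0.022, and became -0.0048 without Pax7 replicate 1 and -0.021 without Pax3 replicate 1 (-0.021 to 0.068 over all left-out arrays). The cause was not tested. A test against a fold change of 1.2, stricter by construction, called 4 members and 3819 genes for Pax7 against control, 4 members and 3264 genes for Pax3 against control, and 3 members and 784 genes for Pax7 against Pax3. With 1 array left out, 9 to 10, 6 to 7 and 6 to 6 members were called, and 7519 to 8138, 6903 to 7753 and 2507 to 4277 genes. With the replicate number as a block, 9, 6 and 6 members were called, as without it.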

Other observations

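Among T-tubule and membrane repair genes named after their values were seen, relatives took opposite directions. Jph1 and Jph2 tie the surface membrane of muscle to the calcium store. Jph1 stood at 8.85, 8.87 and 8.67 on the Pax7 arrays, at 8.95, 8.99 and 8.80 on the Pax3 arrays, and at 9.81, 9.94 and 9.77 on the control arrays. Jph2 stood at 10.24, 10.27 and 10.24 on the Pax7 arrays, at 10.32, 10.49 and 10.50 on the Pax3 arrays, and at 9.77, 9.75 and 9.82 on the control arrays. Control arrays were highest for Jph1 and lowest for Jph2. Log2 fold changes for Jph1 were -1.04 in Pax7 and -0.93 in Pax3 against control arrays (limma adjusted p = 4.06e-07 and 1.40e-06), and for Jph2 they were 0.47 and 0.66 (adjusted p = 2.53e-05 and 1.94e-06). A further probe set of each gene moved the same way (Jph1 -0.81 and -0.79, Jph2 0.47 and 0.76). The repair protein dysferlin, Dysf, had log2 fold changes of -1.19 in Pax7 and -0.57 in Pax3 arrays (limma adjusted p = 6.61e-09 and 3.97e-06), and annexin Anxa1 of 1.12 and 0.77 (adjusted p = 1.42e-08 and 4.71e-07).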
